A study of Mus musculus with 12 samples.

Results

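The inputs described here are the 6 libraries of total spinal cord RNA that were taken before ribosomes were pulled down, 3 from each of 2 bacTRAP mouse lines, out of 12 libraries in all. They were chosen by their labels, not by a measured value. All mice were at postnatal day 21 (P21). The PreIP_Chat group came from mice carrying Tg(Chat-EGFP/Rpl10a)DW167Htz and the PreIP_Snap25 group from mice carrying Tg(Snap25-EGFP/Rpl10a)JD362Jdd. Both groups therefore carry EGFP fused to the ribosomal protein Rpl10a, driven by sequences of Chat in cholinergic neurons or of Snap25 in neurons in general, and no group without a transgene was analysed here. The labels name no sex, do not say whether a library is 1 animal or a pool, and do not say that the 3 libraries of a group came from separate animals, so the p-values below measure only the spread between these libraries.

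In the bacTRAP method a tagged ribosomal protein is expressed from a bacterial artificial chromosome, a long stretch of genomic DNA that can hold neighbouring genes as well as the chosen promoter. The pulldown keeps RNA held by tagged ribosomes, whereas the input holds RNA of every cell in the dissected tissue. The cord is a mixture of neurons, of oligodendrocytes that wrap central axons in myelin, of astrocytes, microglia and vessels, and it is bordered by meninges and by nerve roots whose myelin is made by Schwann cells. Motor neurons are cholinergic: Chat makes acetylcholine, and Slc18a3, which lies within the Chat locus, loads it into synaptic vesicles. In bulk RNA, fewer cells of a type and less RNA per cell cannot be told apart.

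Total counts ran from 17.7 M to 20.5 M per library (M, counts in units of 1e6), with means of 19.3 M ± 1.33 in PreIP_Chat and 18.7 M ± 1.44 in PreIP_Snap25 (SD, n = 3 each). Between 16151 and 16908 genes per library had at least 5 counts. Rank correlations across genes between pairs of inputs ran from 0.956, between PreIP_Snap25 replicate 2 and PreIP_Chat replicate 1, to 0.984, between PreIP_Snap25 replicate 1 and PreIP_Chat replicate 2. The closest pair thus crossed the lines. The sample descriptions end in a numeric suffix, which is the same in these 2 libraries. It begins with 1 in them and in PreIP_Chat replicate 1, and with other digits in PreIP_Chat replicate 3 and PreIP_Snap25 replicates 2 and 3. The labels do not state what a suffix means.

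The tissue label was checked against Hox genes, which keep the head-to-tail address of cord cells. Of 34 measured Hox genes, 32 passed the filter on low counts. Hoxb8 had the highest level per gene length of them, at 330 TPM (transcripts per 1e6, here within nuclear protein-coding genes), followed by Hoxc10 at 296, Hoxb5 at 156 and Hoxa7 at 148. Hoxc10 is expressed in the lumbar cord and Hoxb5 from the hindbrain and cervical cord downwards. In CPM (counts per 1e6 after TMM scaling, which evens out libraries by their bulk of genes), Hoxc10 was at 91.4, 80.2 and 69.9 in PreIP_Chat and at 95.1, 91.9 and 85.7 in PreIP_Snap25. These ranges overlapped, and no tested Hox gene passed an unadjusted p of 0.05 between the lines.

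Ribosomal RNA of the mitochondrion was the largest single class of noncoding counts. The mitochondrial large ribosomal RNA, mt-Rnr2, held 18.4%, 19.7% and 16.1% of counts in PreIP_Chat and 18.3%, 27.2% and 23.5% in PreIP_Snap25. The small one, mt-Rnr1, held 7.14%, 6.46% and 7.10% against 6.96%, 13.5% and 9.49%. Together they made 24.96% ± 1.59 of counts in PreIP_Chat and 33.0% ± 7.71 in PreIP_Snap25 (SD, n = 3 each). The difference was -8.02 percentage points, and the groups overlapped (exact permutation test, two-sided, p = 0.3, where 3 against 3 cannot go below 0.1). PreIP_Snap25 replicate 1 lay among the Chat libraries, and replicate 2 was the highest of the 6. With libraries of this size, the 95% Wilson interval of such a share is at most ± 0.021 points, counting error only, so the scatter between libraries is far above it.

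**Figure D1:**
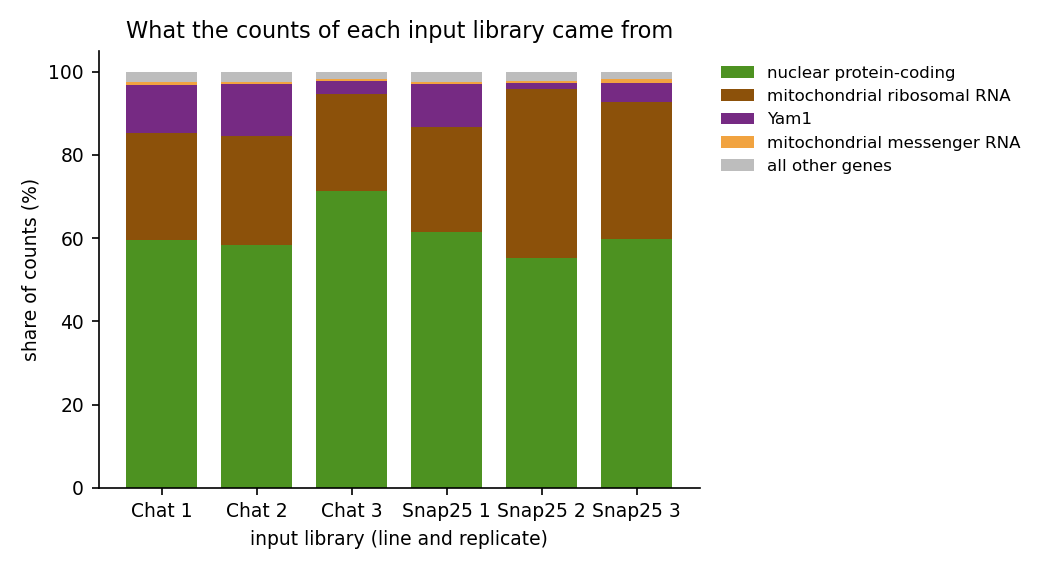
Share of counts (%) by class in each of the 6 input libraries, stacked to 100. Nuclear protein-coding genes took 55.2% to 71.4%, and Yam1 took more than 10% in Chat 1, Chat 2 and Snap25 1 and under 5% in the others.

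Next in share was Yam1, listed as a long noncoding RNA (ENSMUSG00000098178). In GENCODE M21 this gene is called Gm42418. Of the 1831 bases from its start to its end, 1245 overlap Rn18s-rs5 in RefSeq, a sequence related to the RNA of the small cytosolic ribosomal subunit. Another RefSeq entry, AY036118, overlaps 677 bases of the gene. Yam1 held 11.7%, 12.5% and 3.05% of counts in PreIP_Chat and 10.4%, 1.34% and 4.48% in PreIP_Snap25. Each line thus had high and low libraries, and the highest was 9.34 times the lowest.

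Several other transcripts were high and low in the same sets of libraries as Yam1. Mir6236, listed as a microRNA gene, held 0.816%, 0.836% and 0.299% of counts in PreIP_Chat and 0.589%, 0.067% and 0.315% in PreIP_Snap25. Gm23935, also listed as a microRNA gene, held 0.560%, 0.496% and 0.186% against 0.313%, 0.064% and 0.236%. Lars2, which encodes the mitochondrial leucyl-tRNA synthetase, held 0.552%, 0.554% and 0.154% against 0.649%, 0.089% and 0.220%. For Yam1, Mir6236, Gm23935 and Lars2 alike, the 3 libraries whose description suffix begins with 1 were the 3 highest and PreIP_Snap25 replicate 2 was the lowest. Gm15564, listed as antisense, spread further, from 51.6 CPM in PreIP_Snap25 replicate 2 to 1451 CPM in PreIP_Chat replicate 1. The GC content of genes moved with this order: the rank correlation across 15073 genes between GC content and a library's deviation was 0.496 in PreIP_Chat replicate 1, 0.238 in PreIP_Snap25 replicate 1 and 0.138 in PreIP_Chat replicate 2. It was 0.008 in PreIP_Snap25 replicate 3, -0.209 in PreIP_Chat replicate 3 and -0.546 in PreIP_Snap25 replicate 2. The part of GC content in these levels was not tested.

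The sequences of these short RNAs are shown because identical copies limit how their reads can be assigned. Gm23935 and Gm24245 have the same 57 bases in GENCODE M21, and Gm23388 differs from the other two at 4 bases, which are in capitals. Gm24245 and Gm23388 were chosen after their values were seen.
Gm23935: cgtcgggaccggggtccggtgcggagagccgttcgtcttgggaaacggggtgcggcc
Gm24245: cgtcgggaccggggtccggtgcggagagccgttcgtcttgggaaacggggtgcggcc
Gm23388: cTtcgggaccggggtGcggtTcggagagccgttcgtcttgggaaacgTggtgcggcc
mmu-miR-6236: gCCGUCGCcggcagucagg
The last line is the mature microRNA of the Mir6236 gene as RefSeq gives it (GRCm38.p6, chr9:110281353-110281371, plus strand), with its seed, bases 2 to 8, in capitals.

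Although Gm23935 and Gm24245 share a sequence, their counts did not: Gm23935 ran from 664 to 5909 CPM over the 6 inputs and Gm24245 from 15.7 to 73.5 CPM. How reads that match several copies were counted is not given in the sources used here, so the levels of single copies are uncertain. These libraries were made by amplifying total RNA, and the counts of these genes say nothing about mature microRNA.

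Among nuclear protein-coding genes, Snap25 and Mbp had the largest shares. Snap25, a membrane-fusion protein of synaptic vesicles, held 0.708% ± 0.159 of counts (SD, n = 6). Mbp, a main protein of central myelin, held 0.680% ± 0.146, and the noncoding Malat1, a long RNA kept in nuclei, held 0.638% ± 0.302. Below them were the iron-storing ferritin chain Fth1 at 0.406% ± 0.070 and the tubulin Tubb4a at 0.382% ± 0.077. Other genes among the leading 20 by share were Mobp of myelin and, at between 0.213% and 0.260%, Map1b and Map1a, which bind microtubules, the neurofilament chains Nefm and Nefl, and Atp5b of the ATP synthase. Malat1 spread most among the genes of this paragraph, from 0.362% in PreIP_Chat replicate 1 to 1.21% in PreIP_Snap25 replicate 2.

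Per gene length, Tubb4a came first of 21605 nuclear protein-coding genes, at 11260 TPM ± 2205 (SD, n = 6). Fth1 followed at 7669 ± 971 and Snap25 at 6912 ± 1880, and lower down stood Vsnl1, a neuronal calcium sensor, at 5432 ± 639, and Mbp at 5242 ± 867. From Fth1 to Mbp, the gap between each of these genes and the next one named was smaller than the larger of their SDs. Below them came Nefl, the calmodulin gene Calm2, the metallothionein Mt2, the sodium pump subunit Atp1b1, the cytochrome oxidase subunit Cox6a1, Cend1, Cplx1, which acts in vesicle release, Atp5b, Cox8a, Ywhae, Dynlrb1, Gng3 and Tecr, between 4224 and 2982 TPM. The leading 100 genes took 23.9% of the total, while the median gene stood at 5.97 TPM.

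Neurons and myelinating oligodendrocytes were the cell types whose markers stood highest. Of 23 markers of neurons in general, 8 were among the 100 highest genes and their median was 984 TPM. Of 20 markers of mature oligodendrocytes, 7 were among the 100 highest, with a median of 550 TPM, and they included Mbp, Mal (2947 TPM) and Cnp (2899 TPM). Astrocyte markers had a median of 163 TPM and 3 of 20 among the 100 highest, led by the glycolytic enzyme Aldoc (2266 TPM), the calcium-binding S100b (2060 TPM), glutamine synthetase, Glul (1483 TPM), and the filament protein Gfap (887 TPM). Markers of red blood cells had a median of 234 TPM, and the globin Hbb-bs reached 1518 TPM.

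Specific classes of neuron stood much lower than neurons in general. The markers of inhibitory neurons that use GABA or glycine had a median of 34.6 TPM, with the glycine transporter Slc6a5 at 379 TPM, the vesicular transporter Slc32a1 at 190 TPM and Gad2 at 128 TPM. Those of glutamate neurons had a median of 17.7 TPM, with Slc17a6, which loads glutamate into vesicles, at 103 TPM, and the neuropeptide Sst far above the rest of its list at 1924 TPM. Cholinergic motor neuron markers had a median of 21.5 TPM, near that of microglia at 20.8 TPM. Within that list, Slc18a3 stood at 287 TPM, Prph, a filament of peripherally projecting neurons, at 178, Ache, which breaks down acetylcholine, at 76.8, and Chat itself at 24.0. These are means over both lines, and that of Slc18a3 pools lines whose mean CPM was 164 and 46.1. None of 20 motor neuron markers was among the 500 highest genes.

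Other cell types at the border of the cord were present too. Schwann cell markers had a median of 34.3 TPM, and Pmp22, a protein of peripheral myelin that other cells also make, reached 1348 TPM. Meningeal fibroblast markers had a median of 26.4 TPM, led by Ptgds (719 TPM), which oligodendrocytes also express. Precursors of oligodendrocytes had a median of 43.2 TPM, ependymal cells 12.5 TPM and vessel endothelium 3.43 TPM. Fat cell markers had a median of 0.696 TPM and lymphocyte markers of 0.0847 TPM. All 8 lymphocyte markers listed as protein-coding and with a length were under 1 TPM. Ighm, the immunoglobulin mu heavy chain, which is not among those 8, was counted at 59.97 to 172 CPM in the 6 inputs. The other 11 genes of the lymphocyte list summed to between 0.902 and 2.88 CPM, and Cd3g and Cd8a were at 0 in every library, where 3 counts would be 0.146 to 0.170 CPM.

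**Figure D2:**
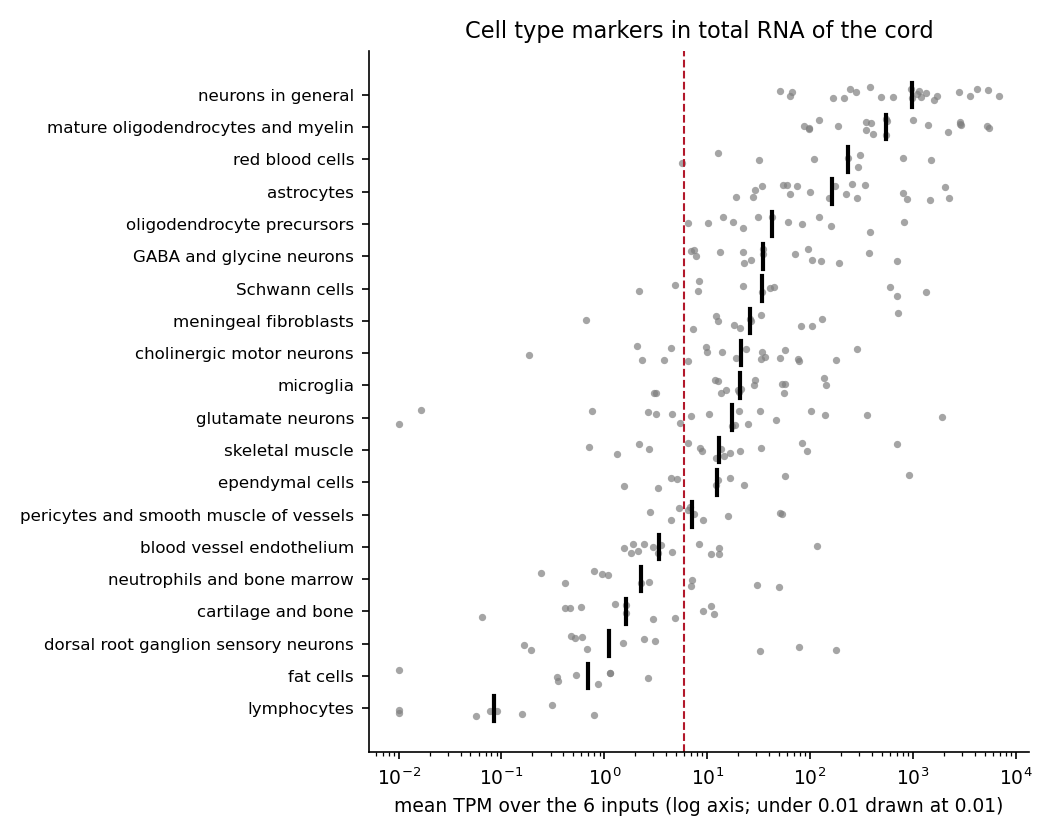
Mean TPM over the 6 inputs (log axis) of each marker, 1 grey point a gene, with the median of each list as a black bar and the median of all 21605 genes as a dashed line at 5.97 TPM. Lists of neurons in general and mature oligodendrocytes stand highest, and lymphocyte markers lowest.

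Among 13 messenger RNAs of the mitochondrial genome, the counts were uneven. mt-Co1, a subunit of cytochrome oxidase, averaged 1636 CPM, mt-Cytb 1180 CPM and mt-Nd1 1121 CPM over the 6 inputs. By contrast mt-Co2, mt-Co3, mt-Atp8 and mt-Nd4l were at 0 in every library and mt-Atp6 had a single count in PreIP_Snap25 replicate 1. All of these are abundant messages in tissue rich in mitochondria, and why the table holds almost none of their reads was not tested.

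The question for the comparison was whether the inputs of the lines, which should hold the same tissue, differ in any gene. Of 15125 genes tested with edgeR's quasi-likelihood test, 0 were higher (0%) and 0 were lower (0%) in PreIP_Chat at a Benjamini-Hochberg adjusted p under 0.05. At an unadjusted p under 0.05, 219 were higher (1.45%) and 313 lower (2.07%), 532 in all. On the same tested genes, DESeq2 called 5 higher and 0 lower and limma voom 2 higher and 0 lower after adjustment. The genes with no overlap between the lines were 534 with every Chat library above every Snap25 library (3.53%) and 667 with every Chat library below (4.41%). The median log2 difference over all tested genes was -0.017, and it was 0.094 when libraries were scaled by total counts alone. The biological coefficient of variation that edgeR estimated over all genes was 0.256.

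Of the 3 genes with the smallest p-values, Slc18a3 and Ercc6 lie next to Chat, and the other is Cyp2j5. Slc18a3, the vesicular acetylcholine transporter, was at 162, 150 and 179 CPM in PreIP_Chat and at 59.4, 20.4 and 58.6 CPM in PreIP_Snap25. The groups did not overlap, and the Chat libraries lay within 1 narrow band. Its log2 difference was 1.83 ± 0.31 (SE), a 3.55-fold difference, with an adjusted p of 0.0814 in edgeR, 0.000109 in DESeq2 and 0.0419 in limma voom. Within the 3 libraries whose suffix begins with 1 the log2 difference of Slc18a3 was 1.39 and within the other 3 it was 2.37, with 1 library on one side of each.

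Ercc6, a chromatin remodeller of DNA repair, was at 39.4, 35.2 and 46.4 CPM in PreIP_Chat and at 16.2, 18.8 and 13.4 CPM in PreIP_Snap25. Here too every Chat library was above every Snap25 library, with a log2 difference of 1.32 ± 0.22 (SE), and adjusted p-values of 0.0814 in edgeR, 0.000126 in DESeq2 and 0.0897 in limma voom. Between these genes in order along the chromosome lies Gm2990, a predicted gene that overlaps Chat and was chosen after its values were seen. It was at 6.37, 6.91 and 6.93 CPM against 1.80, 1.899 and 3.10 CPM, a log2 difference of 1.57 ± 0.33 (adjusted p = 0.645 in edgeR, 0.0153 in DESeq2). Slc18a3 lies on the strand of Chat and Gm2990 on the other, both within the span of Chat, so without a stated strand setting their reads and those of Chat cannot be separated with certainty.

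The bases just before the starts of Slc18a3 and Ercc6 are shown because these were the neighbours of Chat with the smallest p-values. They are the 250 bases before each start in RefSeq (GRCm38.p6), at chr14:32464851-32465100 on the minus strand for Slc18a3 and chr14:32513271-32513520 on the plus strand for Ercc6. Capitals mark matches to the GC box GGGCGG or its reverse complement CCGCCC.
Slc18a3: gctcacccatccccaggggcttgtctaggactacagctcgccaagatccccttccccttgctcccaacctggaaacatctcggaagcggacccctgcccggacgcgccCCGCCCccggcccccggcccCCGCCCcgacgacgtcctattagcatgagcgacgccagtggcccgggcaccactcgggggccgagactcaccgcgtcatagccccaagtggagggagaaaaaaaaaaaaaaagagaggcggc
Ercc6: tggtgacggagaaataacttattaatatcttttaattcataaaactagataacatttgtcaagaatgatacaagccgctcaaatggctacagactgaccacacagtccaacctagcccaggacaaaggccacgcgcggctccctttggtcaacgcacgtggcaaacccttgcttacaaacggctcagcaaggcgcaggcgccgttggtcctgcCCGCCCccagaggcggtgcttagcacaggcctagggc
Slc18a3 has 2 matches and Ercc6 has 1, and 32.7% of 32851 promoters of the same length hold at least 1. A match is a description and does not show that a factor binds there.

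The difference did not extend evenly along the chromosome. Chat itself was at 27.0, 18.2 and 14.3 CPM in PreIP_Chat and at 17.9, 12.5 and 13.4 CPM in PreIP_Snap25, so the groups overlapped. Its log2 difference was 0.44 ± 0.26 (SE, unadjusted p = 0.115, adjusted p = 0.996). Ogdhl, the tested gene on the other side of Chat, did not overlap between the lines but differed by only 0.58 ± 0.29. Parg, next beyond Ogdhl, was at -0.21 ± 0.26, and Prrxl1, next beyond Ercc6, at -0.25 ± 0.38. Farther out, 3425401B19Rik was at 1.47 ± 0.73 from levels of at most 1.45 CPM, with overlapping groups. Of the 20 tested neighbours, 10 on each side, 5 had no overlap with the Chat line higher and none with it lower, against 3.53% and 4.41% of all tested genes.

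**Figure D3:**
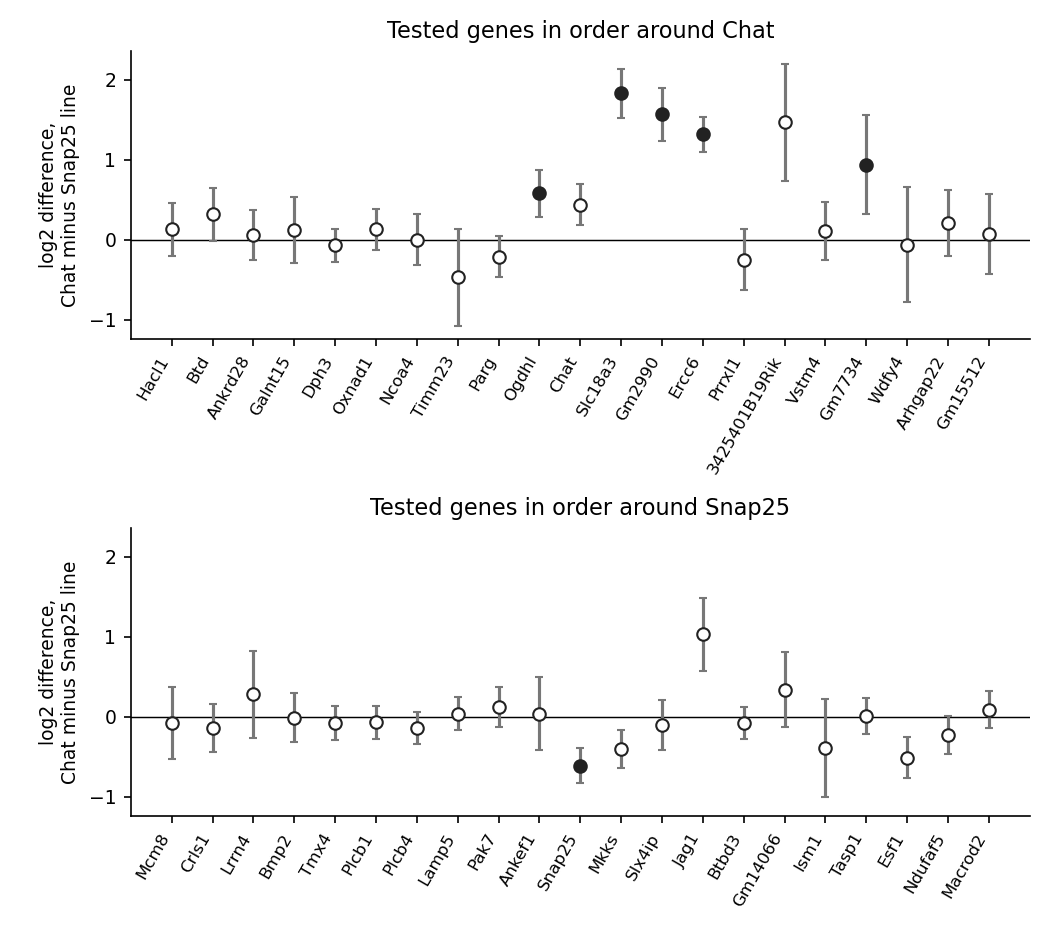
Log2 difference between the lines (Chat minus Snap25, ± SE) for 10 tested genes on each side of Chat and of Snap25, in chromosome order. Filled points are genes whose libraries did not overlap between the lines, and the 3 genes from Slc18a3 to Ercc6 stand at 1.83, 1.57 and 1.32.

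The gene that drives the tag in the other line, Snap25, was at 5438, 5302 and 6113 CPM in PreIP_Chat and at 8265, 9401 and 8066 CPM in PreIP_Snap25. Every Snap25 library was above every Chat library, with a log2 difference of -0.61 ± 0.22 (SE, unadjusted p = 0.0128, adjusted p = 0.996 in edgeR). Among its neighbours, Mkks, a chaperonin-like gene, was at -0.40 ± 0.24 and Ankef1 at 0.04 ± 0.46, and both overlapped between the lines. Jag1, a Notch ligand farther along, was at 1.03 ± 0.46, also overlapping (unadjusted p = 0.0399, adjusted p = 0.996). Rpl10a, the gene whose product carries the tag in both lines, was at 8.55, 6.41 and 8.20 CPM against 5.56, 3.68 and 8.06 CPM, and the groups overlapped.

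**Figure D4:**
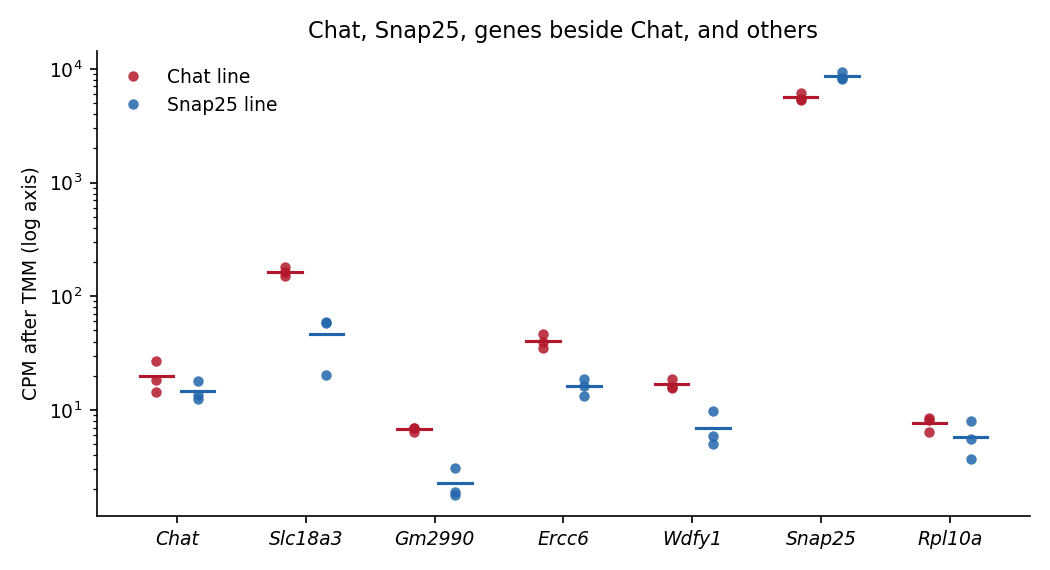
CPM after TMM scaling (log axis) in each input, with 1 point a library and a bar at the mean of 3; the Chat line is red and the Snap25 line blue. Slc18a3, Gm2990, Ercc6 and Wdfy1 are higher in all Chat libraries, Snap25 is lower in them, and Chat and Rpl10a overlap.

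Cyp2j5 and Wdfy1 were not among the neighbours of Chat or Snap25. Cyp2j5, a cytochrome P450, had 19, 22 and 32 counts in PreIP_Chat and 0 in each Snap25 library, which is at least 22.0-fold higher against a floor of 3 counts over the Snap25 group (0.0555 CPM). Its adjusted p was 0.0814 in edgeR, 0.0027 in DESeq2 and 0.00437 in limma voom, and the gene was chosen after its values were seen. Wdfy1, from a list of genes known to differ between inbred mouse strains, was at 15.5, 16.1 and 18.7 CPM against 5.91, 9.78 and 5.01 CPM. Its log2 difference was 1.28 ± 0.28 (adjusted p = 0.693 in edgeR, 0.0369 in DESeq2), and the groups did not overlap. The other 6 tested genes of the strain list had log2 differences below 0 and overlapped between the lines, with a list median of -0.17. The genetic background of the lines is not in the labels, and transgene and background cannot be told apart with 1 line of each kind.

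For the main cell types of the cord, the list medians lay within 0.24 of 0. The median log2 difference was -0.07 for 20 markers of mature oligodendrocytes, -0.24 for 20 of astrocytes, -0.03 for 24 of neurons in general and -0.02 for 16 of inhibitory neurons, against -0.017 for all tested genes. With total-count scaling the oligodendrocyte, astrocyte, neuron and inhibitory medians became 0.04, -0.12, 0.06 and 0.10. Without PreIP_Snap25 replicate 3 the astrocyte median was 0.10, with 13 of 20 positive, and the oligodendrocyte one 0.22, with 15 of 20 positive. The summed oligodendrocyte markers ran from 17310 to 24130 CPM over the 6 libraries and the summed astrocyte markers from 4614 to 5867 CPM. The summed neuron markers did not overlap between the lines, at 24070, 21680 and 21440 CPM in PreIP_Chat and 28300, 24330 and 24680 CPM in PreIP_Snap25. Without Snap25, which is in that list, the sums were 18630, 16380 and 15320 CPM against 20030, 14930 and 16610 CPM, and they overlapped. At an unadjusted p under 0.05, 1 oligodendrocyte marker, 2 of neurons in general (Snap25 and Nefm) and none of astrocytes or inhibitory neurons were lower in PreIP_Chat, and none in these lists was higher. Of all tested genes, 2.07% were lower and 1.45% higher at that p.

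For motor neurons the summed list did not overlap between the lines with Slc18a3 and overlapped without it. The sums were 546, 535 and 513 CPM in PreIP_Chat and 430, 274 and 415 CPM in PreIP_Snap25. Without Slc18a3 they were 384, 385 and 334 against 370, 254 and 357 CPM. The median log2 difference of the 19 tested genes was 0.08. Ret, the receptor for glial neurotrophic factors, was at 0.46 ± 0.24 and Slc5a7, which takes up choline, at 0.16 ± 0.22, with overlap in both.

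Schwann cell markers, whose sum differed 3.64-fold between the highest and lowest library, spread more than the summed oligodendrocyte markers at 1.39-fold. Pmp22 was at 736, 689 and 356 CPM in PreIP_Chat and at 476, 140 and 539 CPM in PreIP_Snap25. The groups overlapped, with a log2 difference of 0.63 ± 0.37 (unadjusted p = 0.109, adjusted p = 0.996). The summed Schwann cell list was 1704, 1527 and 778 CPM against 1231, 469 and 1024 CPM. As for Yam1, the 3 libraries with a suffix beginning with 1 were the highest and PreIP_Snap25 replicate 2 the lowest. All 11 Schwann markers had a positive log2 difference, with a median of 0.58, and 1 of them, Drp2, had an unadjusted p under 0.05, where 1.45% of all tested genes were higher at that p. With 1 library left out at a time, the median ran from 0.27 without PreIP_Snap25 replicate 2 to 0.86 without PreIP_Chat replicate 3. The count at that p was 0 without PreIP_Chat replicate 1 or 2, 2 without PreIP_Snap25 replicate 3, 6 without PreIP_Chat replicate 3 and 7 without PreIP_Snap25 replicate 1, and it was 6 with total-count scaling. Over all tested genes in both directions, 532 of 15125 passed that p with all libraries. With 1 library left out, this ran from 314 of 15444 without PreIP_Chat replicate 2 to 1099 of 15463 without PreIP_Snap25 replicate 1. With total-count scaling it was 579 of 15125, and edgeR gave a gene's own spread less weight there.

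Skeletal muscle RNA stood out in a single library. Acta1, the actin of skeletal muscle, was at 1.53, 102 and 6.42 CPM in PreIP_Chat and at 12.03, 1.78 and 4.30 CPM in PreIP_Snap25. The 15 muscle genes other than Pvalb, which spinal neurons also express, summed to 526 CPM in PreIP_Chat replicate 2, to 10.8 and 75.8 CPM in the other Chat libraries and to 108, 19.5 and 22.4 CPM in PreIP_Snap25. With all 6 libraries the 13 tested muscle genes had a median log2 difference of 2.34, and 8 had an unadjusted p under 0.05, where 1.45% of all tested genes were higher at that p. Leaving out any other library gave medians of 1.82 to 3.56 and 2 to 12 such genes. Over all tested genes in both directions, 402 of 15492 to 1099 of 15463 passed that p in these fits. Without PreIP_Chat replicate 2 that median was -0.21 and the count was 0, and Acta1 turned from 2.59 to -0.60. Atp2a1, Myh4, Acta1, Mylpf and Ttn, all of the contractile apparatus or its calcium store, were the 5 genes with the largest within-group SD of log2 CPM among the 8418 that averaged 10 CPM or more, at 1.98 to 2.75 against a median of 0.271.

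Markers of meningeal fibroblasts leaned the same way. Of 12 tested, 11 had a positive log2 difference and the median log2 difference was 0.63, with 6 positive and 1 negative at an unadjusted p under 0.05. Of all tested genes, 1.45% were higher and 2.07% lower at that p. Col1a1, a collagen chain, was at 70.7, 206 and 46.2 CPM in PreIP_Chat and at 96.9, 23.5 and 38.02 CPM in PreIP_Snap25, and was highest in the library with the muscle RNA. Without PreIP_Chat replicate 2 the median of the list was 0.25, with 1 positive and 1 negative at that p. Leaving out any other library gave medians of 0.42 to 0.88 and 2 to 9 positive at that p. Slc6a13, a transporter of the meninges, did not overlap, with a log2 difference of 0.99 and an adjusted p of 0.996. Endothelial markers were positive in 13 of 14 cases, with a median of 0.62, and the largest was Vwf at 1.54 ± 0.38 (adjusted p = 0.996), from levels of 9.97, 6.52 and 4.45 CPM against 3.51, 1.84 and 1.79 CPM. At an unadjusted p under 0.05, 2 endothelial markers were higher and 0 lower. The endothelial median was 0.42 without PreIP_Chat replicate 2, with 1 higher at that p. It was 0.92 without PreIP_Chat replicate 3, with 6 higher at that p. Over all tested genes in both directions, 532 of 15125 passed that p with all libraries. With 1 library left out, this ran from 314 of 15444 without PreIP_Chat replicate 2 to 1099 of 15463 without PreIP_Snap25 replicate 1. It was 735 of 15480 without PreIP_Chat replicate 3.

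**Figure D5:**
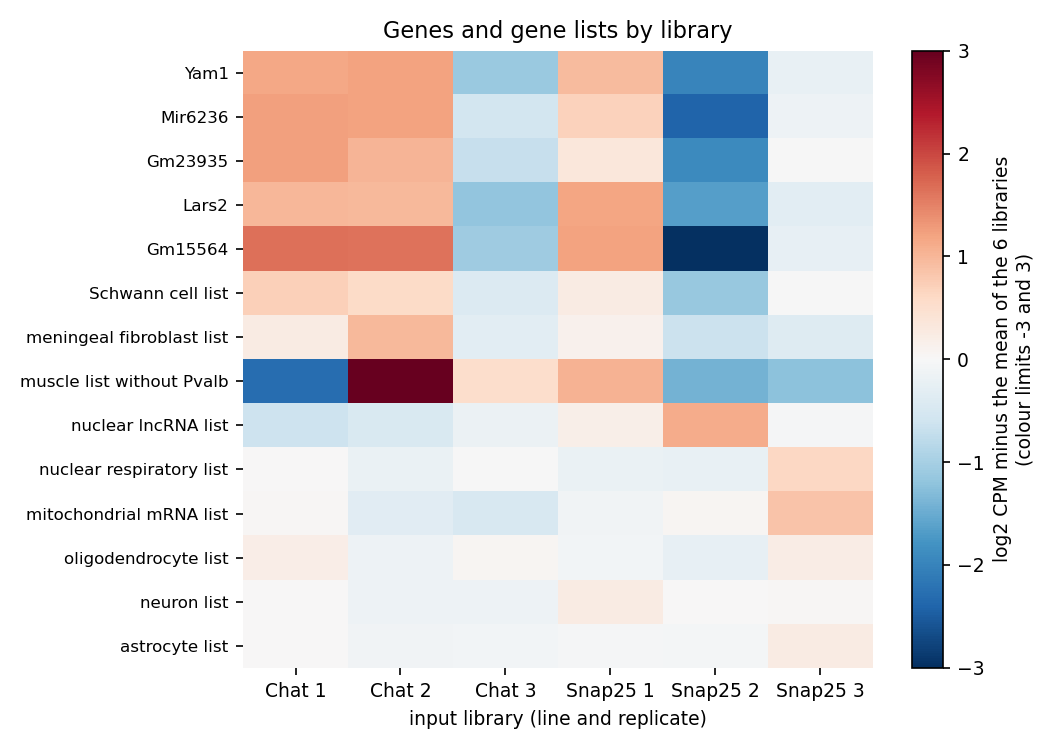
Log2 CPM of single genes and of summed lists in each input, minus the mean of the 6 libraries (colour scale limited to -3 and 3). Yam1 and the short RNAs are high in Chat 1, Chat 2 and Snap25 1, muscle genes in Chat 2, nuclear noncoding RNA in Snap25 2 and respiratory genes in Snap25 3, while oligodendrocyte, neuron and astrocyte lists stay within 0.26 of their means.

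Genes of respiration mostly had negative differences, with PreIP_Snap25 replicate 3 the highest library. The 8 tested messages of the mitochondrial genome all had a negative log2 difference, with a median of -0.64, and 4 were lower at an unadjusted p under 0.05. mt-Nd2, a subunit of complex I, was at 303, 244 and 187 CPM in PreIP_Chat and at 430, 370 and 515 CPM in PreIP_Snap25, and the groups did not overlap (log2 difference -0.84 ± 0.23, adjusted p = 0.996). Among 29 nuclear genes of the respiratory chain, 25 had a negative log2 difference, with a median of -0.29, and 6 had an unadjusted p under 0.05, where 2.07% of all tested genes were lower at that p. Their sum was 11530 CPM in PreIP_Snap25 replicate 3 and 6433 to 7600 CPM in the other 5 libraries. Cytosolic ribosome genes (3283 against 1816 to 2120 CPM) and microglia markers (241 against 128 to 180 CPM) also had their highest sums there. Summed neuron markers were highest in PreIP_Snap25 replicate 1. The rank correlation between transcript length and deviation was -0.391 in PreIP_Snap25 replicate 3 and -0.105 to 0.233 in the other 5. The part of length in these levels was not tested. Without PreIP_Snap25 replicate 3 the nuclear respiratory median was 0, with 15 of 29 positive and none lower at that p. The mitochondrial one was -0.14, with 6 of 8 still negative and 2 lower at that p, and mt-Nd2 was at -0.70. Without PreIP_Snap25 replicate 1 or 2, 13 and 12 of the nuclear genes were lower at that p. Over all tested genes in both directions, 1099 of 15463 and 571 of 15469 passed it in these fits. That number was 766 of 15553 without PreIP_Snap25 replicate 3 and 532 of 15125 with all libraries.

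Noncoding RNA of the nucleus was high in PreIP_Snap25 replicate 2. Malat1 was at 3816, 4236 and 5112 CPM in PreIP_Chat and at 6772, 12540 and 6012 CPM in PreIP_Snap25, with no overlap and a log2 difference of -0.94 ± 0.28 (adjusted p = 0.996). Miat, also nuclear, was at 59.7, 59.9 and 80.8 CPM against 75.01, 235 and 16.7 CPM, so the Snap25 line held both its highest and its lowest library. All 10 tested genes of this list had a negative log2 difference, with a median of -0.48, but without PreIP_Snap25 replicate 2 the median was 0.14 and 8 of 10 were positive, and Malat1 was at -0.54. Without PreIP_Snap25 replicate 3 the median was -0.86, with 7 of 10 lower at an unadjusted p under 0.05, against 1 with all libraries. Of all tested genes, 2.07% were lower at that p with all libraries. In both directions, 766 of 15553 passed it without PreIP_Snap25 replicate 3, against 532 of 15125 with all libraries. PreIP_Snap25 replicate 2 also had the largest share of mitochondrial ribosomal RNA and the smallest of Yam1.

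Genes linked to the sexes showed a mix within most libraries. Xist, which is expressed from the silenced X chromosome of females, was at 1.14, 26.5 and 10.9 CPM in PreIP_Chat and at 11.1, 17.8 and 49.5 CPM in PreIP_Snap25. The Y-linked Ddx3y was at 9.21, 2.59 and 3.19 CPM against 4.66, 8.75 and 5.61 CPM. PreIP_Chat replicate 1 had the lowest Xist and the highest Ddx3y, and both genes were counted in every library. None of the 9 tested sex-linked genes had an unadjusted p under 0.05 between the lines, with a median log2 difference of -0.08. Without PreIP_Chat replicate 1, 3 of the 9 were lower at that p and the median was -0.49. Over all tested genes in both directions, 402 of 15492 passed that p in this fit, against 532 of 15125 with all libraries.

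Genes that follow the hour or the handling of animals were also compared. Of 17 clock genes, 1 had an unadjusted p under 0.05, the repressor Nr1d1, at 135, 133 and 102 CPM in PreIP_Chat and at 123, 58.8 and 57.2 CPM in PreIP_Snap25 (log2 difference 0.64 ± 0.27, adjusted p = 0.996), and the median of the list was 0. Of all tested genes, 1.45% were higher and 2.07% lower at that p. The median was -0.02 for 23 immediate early genes and 0.01 for 14 genes induced by glucocorticoids, and none of these had an unadjusted p under 0.05. With total-count scaling these medians became 0.11, 0.09 and 0.11. Egr1, an immediate early gene, ran from 73.0 to 175 CPM without separating the lines.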

How the data were processed

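Total RNA of P21 mouse spinal cord was measured in 6 input libraries. Per the labels, the RNA was amplified by Nugen chemistry (Ovation RNA-Seq V2) and sequenced on a HiSeq2500. The authors deposited raw gene counts. STAR and HTSeq were used, per the submitters' processing notes. Which versions, build and annotation were used, and whether counting used strand, is not given in the sources used here. Of 41736 lines in the table, 824 exact repeats were dropped, leaving 40912 gene IDs. Groups came from the labels. Depth was 17.7 M to 20.5 M counts per library (M, units of 1e6), where 3 counts are 0.146 to 0.170 CPM. Without molecular identifiers, intervals and floors cover counting error only.

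Genes were filtered with filterByExpr (minimum count 10, minimum total 15), scaled by TMM and tested with edgeR 4.0.16 in R 4.3.3 (quasi-likelihood test, Benjamini-Hochberg adjustment over 15125 genes, threshold 0.05), on the 6 inputs alone and without covariates. CPM is counts per 1e6 of tested genes after TMM. Percentages are of all counts. TPM used exon lengths of GENCODE M21, found for 40254 IDs holding 99.95% of input counts. The fit was tested on simulated counts. The alternatives used DESeq2 1.42.0, limma 3.58.1, other scalings and filters, a block, and each library left out.

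The members and gene lists were chosen with earlier results of these data known. Named genes were the drivers, Rpl10a and their neighbours, the leading 20 genes by share and by level per length, the 4 most abundant members of each list, and the 10 most variable among genes averaging 10 CPM or more. Up to 12 genes called in each direction would also have been named. Cyp2j5, Gm2990, Wdfy1, Vwf, Drp2, Nefm, Ret, Slc5a7, Slc6a13, mt-Nd2, Egr1, Ighm, Gm24245, Gm23388 and the other list members outside these ranks were chosen after their values were seen. Some genes that the rule would name are not reported here.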

Additional observations from a re-analysis of the deposited data

How the results depend on the processing

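No gene was called in either direction with edgeR under relative log expression scaling, a minimum of 1 CPM in 3 libraries, a fit on all 12 libraries, removal of mitochondrial genes, or a term for the label suffix, which was added after seeing the data. More were called higher and lower in PreIP_Chat with total-count scaling (16 and 1) and with no filter (28 and 8, of 25579 genes). In these fits edgeR's prior degrees of freedom, the weight given to a spread shared between genes, were 106 and infinite. The main fit had 13.6, so a gene's own spread counted for little or nothing in these alternatives. DESeq2 called 5 higher and limma voom 2, and offsets for GC content and length, also added after seeing the data, 2. With the replicate number as a block, 1 gene was called higher, Slc18a3 (log2 difference 1.97, adjusted p = 0.0208 in edgeR), and the mitochondrial ribosomal RNA difference stayed -8.02 points (exact p = 0.5). The deviations of same-numbered libraries from their group means had correlations of 0.101, -0.078 and -0.105. Those of differently numbered libraries ran from -0.287 to 0.361. With 3 libraries a group, these values cannot show whether the numbers pair libraries. Leaving out each library gave 0 to 3 genes higher and 0 to 1 lower; the 3 and the 1 came without PreIP_Snap25 replicate 2, and were Slc18a3, Ercc6 and Wdfy1 higher and Gm26397 lower. The ribosomal RNA difference then ran from -11.88 to -4.16 points. Acta1 ran from -0.60 to 3.58, and reversed without PreIP_Chat replicate 2, the library with the most muscle RNA. The log2 difference of Slc18a3 ran from 1.47 to 2.05 and passed in 7 of 17 alternatives, that of Ercc6 from 1.20 to 1.44 and passed in 5, and that of Snap25 from -0.69 to -0.49 and passed in 0. The 7 and the 5 include the fits with total-count scaling and with no filter. The cause of the differing counts was not tested. With 3 libraries a group, differences near the spread between libraries were not detectable.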
